A study of Mus musculus with 8 samples.

Results

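The genes described here encode the secreted Slit proteins (*Slit1*, *Slit2*, *Slit3*), their Robo receptors (*Robo1*, *Robo2*), and receptors for netrin, the Unc5 family (*Unc5a*, *Unc5b*, *Unc5c*, *Unc5d*) and *Dcc*. These 10 genes were taken by name out of 38031 genes to which transcripts of the count table could be assigned, with *Unc5d* known beforehand to be among the clearest increases of the comparison, and all 10 passed the filter on low counts. No netrin gene is among the 10, and the netrins are given with the other genes of the pathway. Because the genes were chosen with this comparison known, their fold changes are given as a description, without a p-value.

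The libraries were made from total RNA of the primary motor cortex (M1) of male Swiss Webster mice. Lentivirus carrying an mCherry reporter with either *Fezf2 shRNA* (4 libraries) or *non-silencing shRNA*, the control (4 libraries), was injected into M1 at P21 to P25, and tissue was collected at P49 to P53. *Fezf2* encodes a transcription factor that specifies layer 5 projection neurons during development, and the study asked what it does in the mature cortex. All mice carried their own *Fezf2* alleles, and both viruses used a *Synapsin I* promoter fragment, which is active in neurons in general. M1 was cut out by its mCherry signal with all layers and the meninges, so that each library holds neurons with and without virus, glia and vessels. In such tissue fewer cells of a type and less RNA per cell cannot be told apart. The labels do not say whether each library came from a separate animal, so p-values measure the spread between these samples.

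Slit proteins bind Robo receptors on growth cones and in most settings repel them, and they also shape dendrites and the migration of neurons. Netrin attracts axons through Dcc, and repels them where Unc5 receptors are present, alone or together with Dcc. In the developing cortex these receptors steer callosal and corticofugal axons, and several of them remain expressed in adult neurons.

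The control of the experiment is the targeted gene. The sense strand of the *Fezf2 shRNA* is shown because it is the agent that separates the groups.

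Fezf2 shRNA, sense strand: gggaactacaagaatcaca

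All 19 nt were found in the annotated *Fezf2* transcript on chromosome 14. In the annotated spliced transcripts of the 10 guidance genes the longest run shared with this strand was 10 nt, in *Unc5d*, and 7 to 9 nt in the others. A run of at least 10 nt was present in 2.91% of 55341 gene symbols searched. *Fezf2* normalized counts (counts scaled to the mean of the TMM-adjusted library sizes) were 688, 767, 735 and 702 in the controls and 621, 583, 568 and 592 after *Fezf2 shRNA*. Every treated library was below every control, at 723 ± 35.4 against 591 ± 22.1 (mean ± SD, n = 4 each). In edgeR the log2 fold change was -0.29 (SE 0.0760), which did not pass the threshold (quasi-likelihood test, Benjamini-Hochberg adjusted p = 0.0765), while an exact two-sided permutation test gave p = 0.0286, the smallest it can give with 4 against 4.

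Between 54684016 and 58003814 counts per library fell on the 1 transcript used per gene. A transcript's counts cover its whole genomic interval, introns included, so that a value holds reads of unspliced as well as of spliced RNA. In 144 genes with both a mostly intronic and a mostly exonic part, the log2 ratio of intronic to exonic reads, centred over libraries, was -0.12 to -0.04 in the controls and 0.03 to 0.13 after *Fezf2 shRNA* (difference 0.18, exact two-sided permutation p = 0.0286, the smallest possible). None of the 10 guidance genes was among these 144. Genes with a long genomic span had higher counts after *Fezf2 shRNA*: the median log2 fold change was -0.03 over all 9959 genes tested, 0.18 over the 1704 genes of at least 100 kb and 0.29 over the 407 genes of at least 300 kb.

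A gene was past the threshold when its adjusted p was at most 0.05 and its log2 fold change at least 0.2 in size. *Unc5d* and *Slit2* were past it, both higher after *Fezf2 shRNA*, that is 2 of 10, against 2.06% of all genes tested that were higher by the same rule. None of the 10 was lower, against 0.131% of all genes, so that in either direction 2 of 10 stand beside 2.19%. All 4 treated libraries were above all 4 controls for 5 of the 10 (*Unc5d*, *Slit2*, *Dcc*, *Unc5c*, *Robo2*), against 7.41% of all genes, and no gene had all treated libraries below the controls, against 4.41%. With *Robo2* at its widest interval in the count table, 8 of the 10 span at least 100 kb. Of these 8, 2 were past the threshold and higher, against 10.3% of all genes of that span. A span of at least 300 kb is reached by 7 of the 10. Among all genes of at least 300 kb 24.6% were past the threshold and higher, and 50.1% had all treated libraries above all controls. For the 7 guidance genes the counts were 2 and 5. The median log2 fold change was 0.34 over the 10, beside -0.03 over all genes, and 0.40 over the 7 (0.50 without *Robo2*), beside 0.29 over genes of at least 300 kb.

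**Figure D1:**
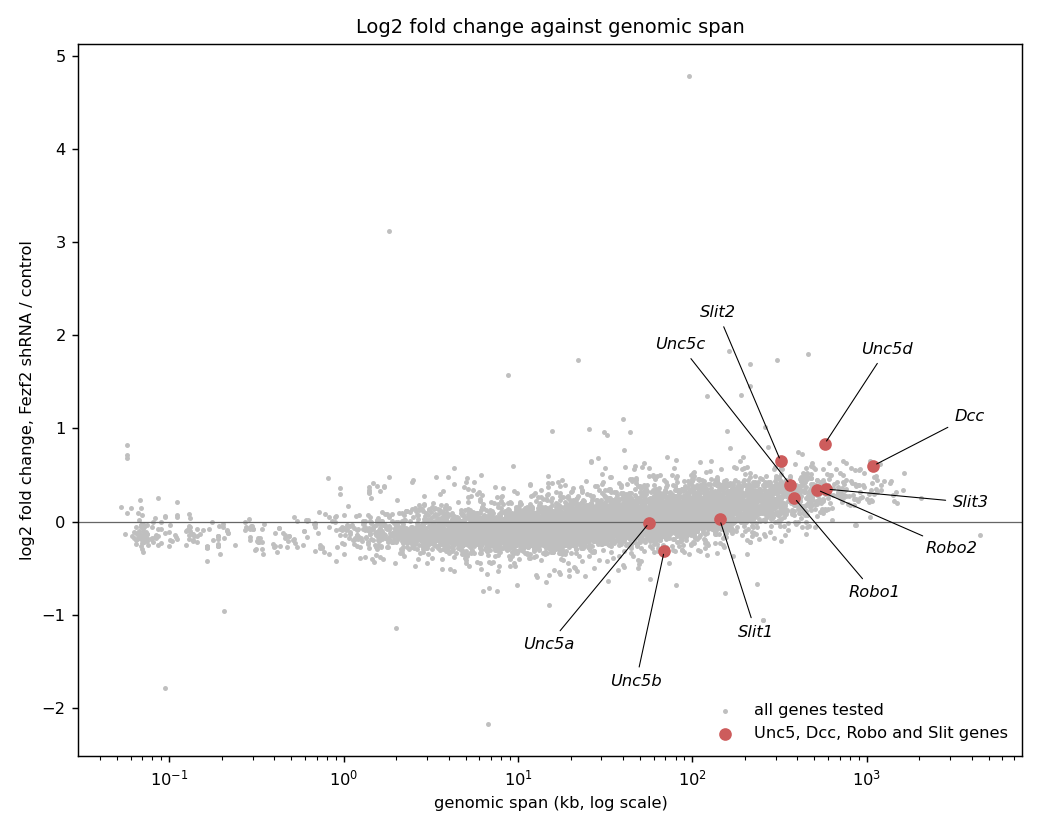
Log2 fold change (vertical axis, *Fezf2 shRNA* over control, edgeR) against the genomic span of the counted transcript in kb (horizontal axis, log scale). Grey points are the 9959 genes tested and red points the 10 guidance genes, with *Robo2* at its widest interval in the count table. The fold changes of all genes rise with span, and *Unc5d* (0.83), *Slit2* (0.65) and *Dcc* (0.60) are the highest of the 10, while *Unc5a* (-0.01), *Slit1* (0.02) and *Unc5b* (-0.31) are the shortest of the 10.

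With a per-library offset that removes the trend of counts with span, none of the 10 was past the threshold. *Unc5d* then had a log2 fold change of 0.51 (SE 0.1004) and *Slit2* one of 0.41 (SE 0.131). The value of *Dcc* was 0.23 and that of *Unc5c* 0.13, and those of *Slit3* (0.03) and *Robo1* (-0.00) were close to 0. *Robo2*, entered with the short interval of its counted transcript, had a higher value than without the offset (0.42). The targeted gene *Fezf2* was at -0.18 with the offset (edgeR adjusted p = 0.433). Without the library of control 1 no guidance gene was past the threshold, and without that of control 2 there were 4 (*Dcc*, *Robo2*, *Slit2* and *Unc5d*). DESeq2 put 5 of the 10 past the same threshold with its prior and without it (*Dcc*, *Robo2*, *Slit2*, *Unc5c* and *Unc5d*). All 5 were higher, against 6.48% and 6.61% of all genes. These 5 are among the 7 guidance genes of at least 300 kb. Of the 407 genes of that span, DESeq2 put 228 past the threshold and higher with its prior and 229 without it.

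The Slit ligands are described first. *Slit2* lies on the plus strand at chr5:47983154-48304396 (GRCm38), with 36 exons in the counted transcript. The 250 bases upstream of its RefSeq start (GRCm38.p6, chr5:47982905-47983154, plus strand) are shown because reads over the adjoining start of the gene are given below. Capitals mark GC boxes (GGGCGG or, on the other strand, CCGCCC) and a TATA element (TATAAA or TTTATA), which do not overlap.

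Slit2 upstream: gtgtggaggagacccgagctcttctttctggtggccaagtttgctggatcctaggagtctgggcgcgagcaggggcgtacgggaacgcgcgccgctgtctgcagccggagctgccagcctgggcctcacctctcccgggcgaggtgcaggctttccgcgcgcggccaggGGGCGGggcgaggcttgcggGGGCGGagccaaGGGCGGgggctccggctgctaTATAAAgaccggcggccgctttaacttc

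The window holds 3 GC boxes and 1 TATA element. Of 32851 RefSeq windows, 32.7% hold a GC box and 12.4% a TATA element in the 250 bases before the start. RefSeq windows were matched for 7 of the 10 genes, and only that of *Slit2* had the TATA letters.

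Normalized counts of *Slit2* were 3378, 4150, 3338 and 3699 in the controls and 4477, 6210, 6732 and 5389 in the *Fezf2 shRNA*-treated libraries. The groups did not overlap, and treated library 1 was the closest to the controls. The means were 3641 ± 376 and 5702 ± 986 (SD, n = 4 each), and the log2 fold change came to 0.65 (SE 0.120), or 1.57-fold.

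Other annotated transcripts of *Slit2* cover shorter stretches of the gene, so that reads can be followed along it. These intervals do not match the authors' counting in every case: 3 transcripts of *Slit2* with the same annotated interval had control means of 3599, 3661 and 3448 normalized counts, and the counted transcript (3641) exceeded the widest one (3448). Over a stretch of 188 kb near the 5′ end (chr5:47984994-48173193, 1.70% exonic bases) the controls had 1332, 1337, 1331 and 1439 normalized counts, and the treated libraries 1829, 2926, 3302 and 2657. There the ratio of the means was 1.97, and all treated libraries were above all controls. Over the first 7.18 kb, where 52.9% of bases are exonic, the means were 482 ± 40.1 and 606 ± 44.6, a ratio of 1.26, again without overlap. This stretch shares bases with the one of 188 kb. Toward the 3′ end the ratios were 1.38 over 40.7 kb, 1.37 over 51.5 kb and 1.17 over the last 20.7 kb, with overlapping groups in each. The excess of reads was thus larger over the intronic stretch in the 5′ part of *Slit2* than over its ends, as values with no test.

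*Slit3* (chr11:35121224-35708507, plus strand) had 6392, 5081, 8490 and 5319 normalized counts in the controls and 9264, 7045, 7678 and 8202 after *Fezf2 shRNA*. The groups overlapped because control 3 was higher than 3 of the 4 treated libraries. The log2 fold change was 0.35 (SE 0.150), not past the threshold.

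Most of the spread of *Slit3* came from a stretch of 332 kb with 0.244% exonic bases. There the controls had 4289, 2862, 5964 and 3054 normalized counts and the treated libraries 6577, 4027, 4620 and 5570. The rest of the gene had 2103, 2218, 2526 and 2265 in the controls and 2687, 3018, 3058 and 2631 in the treated libraries. Outside that stretch all treated libraries were above all controls (2278 ± 179 and 2849 ± 220, SD, n = 4 each), a ratio of 1.25, which was computed after the values of the gene had been seen.

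*Slit1* (chr19:41600259-41743665, minus strand) had 1645, 2552, 1751 and 1921 normalized counts in the controls and 1879, 1892, 2290 and 1934 in the treated libraries. The groups overlapped widely, with the highest and the lowest value both among the controls. Its log2 fold change was 0.02 (SE 0.129), and its sign turned when counts were scaled by library totals (-0.00). Over 97.4 kb in its 5′ part (1.33% exonic) the ratio of the means was 1.09. Near the 3′ end, over 4.16 kb (12.4% exonic), it was 1.20. The groups overlapped in both stretches, and the 5′ intronic one had the smaller ratio.

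*Slit2* and *Slit3* each hold a gene for the microRNA miR-218 in an intron, intron 14 of both counted transcripts. The mature sequence is shown because it lies inside the counted intervals of both genes, with the seed (bases 2 to 8) in capitals. RefSeq places it at chr5:48223966-48223986 in *Slit2* and at chr11:35616840-35616860 in *Slit3*, plus strand in both (GRCm38.p6).

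miR-218-5p from Slit2 and Slit3: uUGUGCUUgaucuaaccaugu

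miR-218-1-3p from Slit2: aAACAUGGuuccgucaagcacc

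miR-218-2-3p from Slit3: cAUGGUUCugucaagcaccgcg

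The 5p products are identical in both genes, while the 3p products differ in their seeds. Reads over the hairpin in *Slit2* were 7, 24, 11 and 17 counts in the controls and 7, 17, 17 and 17 in the treated libraries. Over the hairpin in *Slit3* there were 7, 6, 7 and 5 counts in the controls and 8, 9, 9 and 10 in the treated libraries. These reads cannot be told apart from those of the unspliced host RNA, and at most 0.631% of the counts of either gene came from them.

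**Figure D2:**
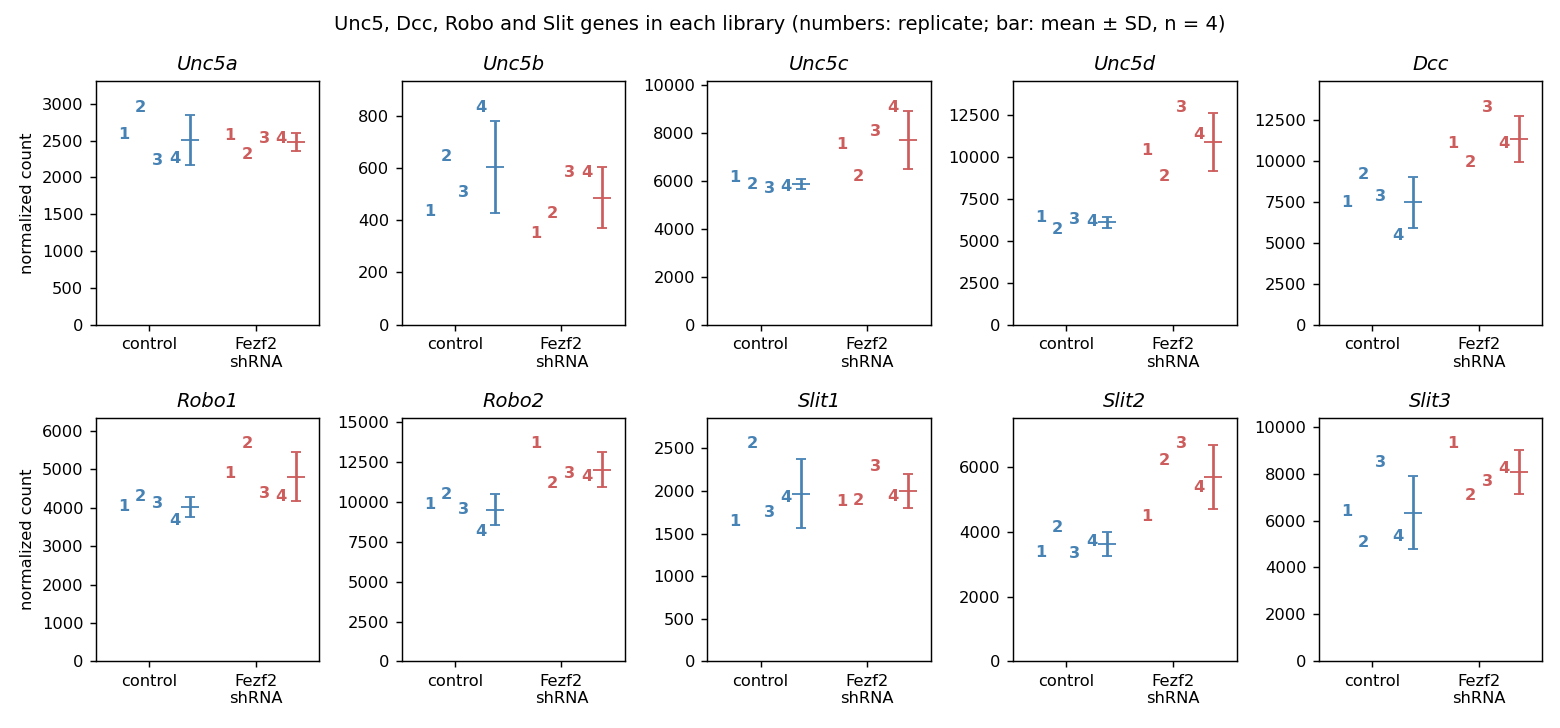
Normalized counts (vertical axes, each from 0) of the 10 guidance genes in each library, control in blue and *Fezf2 shRNA* in red, with the replicate number as the symbol and the mean ± SD (n = 4) beside it. The groups are apart for *Unc5c*, *Unc5d*, *Dcc*, *Robo2* and *Slit2*, and overlap for the other 5.

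The Robo receptors bind the Slits. *Robo2* had 9859, 10454, 9544 and 8161 normalized counts in the controls and 13650, 11133, 11773 and 11597 after *Fezf2 shRNA*. All treated libraries were above all controls, by the least between control 2 and treated library 2. The means were 9504 ± 972 and 12038 ± 1108 (SD, n = 4 each). The difference of 0.34 on the log2 scale (SE 0.0884) was not past the threshold.

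The counted transcript of *Robo2* is annotated in GENCODE M21 as an interval of 13.5 kb (chr16:73920266-73933789, minus strand), but another transcript of nearly the same interval had a control mean of 586 normalized counts. The interval that the authors counted may have been wider than that of M21, which was not tested. The widest interval among its transcripts in the count table (519 kb, chr16:73891839-74410989) is used here for the span of *Robo2*. RefSeq also places starts of *Robo2* further upstream, with windows at chr16:75092721-75093020 and chr16:75447244-75447543 (GRCm38.p6). The gene can thus be longer than 519 kb, and positions along it are given within that interval. With the transcript of 519 kb and the offset for span the log2 fold change of *Robo2* was 0.01.

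Along this interval of *Robo2*, which leaves out the upstream RefSeq starts, the ratio of treated to control means was 1.42 over the first 367 kb (1.55% exonic). It was 1.21 over 45.8 kb further on, 1.06 over 12.9 kb and 0.99 over the last 5.22 kb, in which 77.5% of bases are exonic. In the 3′ stretch the controls had 1096, 1154, 991 and 883 normalized counts and the treated libraries 1160, 1041, 922 and 978, so that the groups overlapped there, and they did not over the first 367 kb.

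*Robo1* (chr16:72663149-73046095, plus strand) had 4041, 4289, 4094 and 3671 normalized counts in the controls and 4897, 5658, 4366 and 4285 in the treated libraries. Treated library 4 lay just below control 2, and the other treated libraries were above all controls. The log2 fold change was 0.26 (SE 0.0915), which was not past the threshold.

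Of the Unc5 receptors, *Unc5d* had the largest difference, which was also the largest among the 10 genes. Unc5d binds Flrt proteins as well as netrin, and unspliced RNA from an intron of the gene has served as a marker of progenitors and neurons of the upper cortical layers. It spans 573 kb at chr8:28646717-29219636 (minus strand), of which 1.61% is exonic. Normalized counts were 6409, 5669, 6277 and 6137 in the controls and 10427, 8827, 12989 and 11353 in the *Fezf2 shRNA*-treated libraries. The controls lay close together and the lowest treated library was well above the highest control. The means were 6123 ± 322 and 10899 ± 1741 (SD, n = 4 each), and the log2 fold change came to 0.83 (SE 0.104), or 1.78-fold. *Unc5d* was past the threshold in 15 of the 19 other fits that were made, more than any other of the 10, and *Slit2* was past it in 11. The fits that *Unc5d* did not pass were those with an offset for gene length and the one without control 1. All fits reuse the same libraries, and *Unc5d* was known beforehand as a clear increase, so these counts are no added support. A single transcript of *Unc5d* was in the table, so reads could not be followed along the gene.

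*Unc5c*, the receptor that repels axons from netrin in many parts of the nervous system, had 6148, 5859, 5678 and 5763 normalized counts in the controls and 7534, 6176, 8077 and 9085 after *Fezf2 shRNA*. The groups were apart only narrowly, between control 1 and treated library 2. The log2 fold change was 0.40 (SE 0.1004), which did not pass the threshold. *Unc5c* lies at chr3:141465574-141829469 (plus strand).

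Within *Unc5c* the 5′ stretch of 195 kb (2.80% exonic) had means of 3554 ± 287 and 5011 ± 1060, a ratio of 1.41. A fully exonic stretch, the difference between a pair of transcripts, holds 4.39 kb at the 3′ end and 0.455 kb at the 5′ end. It had 654, 876, 626 and 677 normalized counts in the controls and 537, 637, 586 and 722 in the treated libraries, a ratio of the means of 0.88. The groups overlapped in both stretches, and the ratio was above 1 in the 5′ intronic one and below 1 in the exonic one. A further stretch of 2.14 kb near the 3′ end, 19.5% exonic, had means of 132 and 103 with overlapping groups. Its ratio of 0.78 was also below 1, although most of its bases are intronic.

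*Unc5a* (chr13:54949411-55006018, plus strand) had 2578, 2955, 2225 and 2261 normalized counts in the controls and 2569, 2307, 2525 and 2526 in the treated libraries. The treated values all lay within the range of the controls, and the log2 fold change was -0.01 (SE 0.0913). Over stretches of 3.25, 1.64 and 1.81 kb toward its 3′ end the ratios were 0.91, 0.90 and 1.04, with overlapping groups in each. *Unc5b* (chr10:60762593-60831581, minus strand), which is best known from endothelial cells, had the fewest counts, 432, 643, 507 and 833 in the controls and 350, 425, 584 and 583 in the treated libraries. Its groups overlapped, the log2 fold change was -0.31 (SE 0.218), and its controls varied the most of the 10 genes, with a coefficient of variation of 29.2%. Counting alone would give 4.05% if every count were independent, and more where both mates of a read pair were counted.

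*Dcc*, the receptor through which netrin attracts axons, lies on chromosome 18 and has the longest interval of the 10, 1092 kb with 0.445% exonic bases. Normalized counts were 7494, 9207, 7858 and 5430 in the controls and 11099, 9925, 13316 and 11110 in the treated libraries. All treated libraries were above all controls, and control 4 was well below the other controls. The means were 7497 ± 1563 and 11363 ± 1416 (SD, n = 4 each). With a log2 fold change of 0.60 (SE 0.143) *Dcc* was not past the threshold. Over its first 399 kb the ratio of the means was 1.54 and over the remaining 698 kb it was 1.47, and the groups were apart in both.

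**Figure D3:**
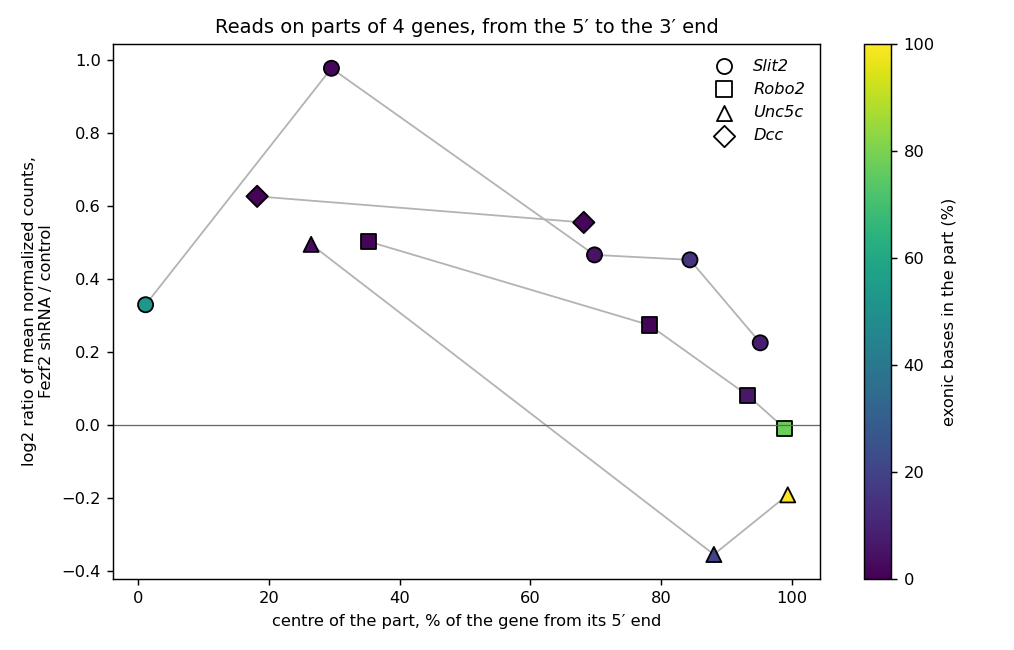
Log2 ratio of mean normalized counts, *Fezf2 shRNA* over control (vertical axis), over stretches of *Slit2*, *Robo2*, *Unc5c* and *Dcc*, placed by their centre as a percentage of the gene from its 5′ end (horizontal axis) and coloured by the percentage of exonic bases. The mostly exonic stretches of *Robo2* and *Unc5c* lie at -0.01 and -0.19. That of *Unc5c* includes 0.455 kb of the 5′ end and is placed by its larger 3′ piece. The intronic 5′ stretches of the 4 genes lie between 0.50 and 0.98. Another 3′ stretch of *Unc5c*, with 19.5% exonic bases, lies at -0.35. For *Robo2* the percentage is that of its widest interval in the count table, and RefSeq places further starts upstream. Stretches of *Slit1*, *Slit3* and *Unc5a* are not drawn. The 5′ intronic stretch of *Slit1* was at 0.13, below its 3′ stretch at 0.27. Those of *Slit3* were at 0.43, 0.36 and 0.27 from 5′ to 3′, and those of *Unc5a*, all toward the 3′ end, at -0.14, -0.16 and 0.06.

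To set genes side by side, counts are given per length of the counted interval, and as the reads cover introns such a level holds unspliced RNA as well. It also depends on the share of exonic bases, which was 7.06% in *Unc5a* and 0.445% in *Dcc*. The order below is thus one of read density over the interval and need not be that of spliced RNA. In the controls *Unc5a* had 44.2 ± 6.0 normalized counts per kb, *Robo2* 21.6 ± 2.24 (over its widest interval) and *Unc5c* 16.1 ± 0.563 (SD, n = 4 each). These 3 genes were followed by *Slit1* (13.7 per kb), *Slit2* (11.3), *Slit3* (10.8), *Unc5d* (10.7), *Robo1* (10.5), *Unc5b* (8.75) and *Dcc* (6.87). *Unc5a* was above *Robo2* and *Robo2* above *Unc5c* in every control library, whereas from *Unc5c* downward each gene overlapped the next in the order. After *Fezf2 shRNA*, *Unc5d* stood at 19.0 ± 3.04 and *Slit2* at 17.7 ± 3.07 normalized counts per kb, and *Unc5a* (43.8 ± 2.09) was still the highest.

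The other genes of both pathways were 53 netrins, further receptors, partners, co-receptors and cytoplasmic effectors, of which 44 were tested. *Srgap3*, a GTPase-activating protein that binds Robo receptors, was the 1 gene past the threshold, higher after *Fezf2 shRNA*, none was lower, and 43 did not pass. That share is near the 2.06% of all genes. The median log2 fold change of the 44 was 0.07, beside -0.03 for all genes tested, with 26 above 0 and 18 below. In 8 of the 44 all treated libraries were above all controls, and in none below, against 7.41% and 4.41% of all genes. The median span of the 44 was 104 kb, beside 28.5 kb for all genes tested. Among the 1704 genes of at least 100 kb, 508 had all treated libraries above all controls and 4 had all below. The median log2 fold change of those 1704 genes was 0.18. Of the 6 netrin genes, *Ntn4* and *Ntng2* had enough counts to be tested and neither passed. *Ntn1*, which encodes the main ligand of Dcc, was under the filter. The counted transcript of *Ntng1*, also under the filter, spans only 0.327 kb, so its counts do not give the level of the gene.

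*Srgap3* had 4443, 5030, 4994 and 4713 normalized counts in the controls and 6552, 5939, 6297 and 5683 in the treated libraries. The groups were apart, with a log2 fold change of 0.35 (SE 0.0662, edgeR adjusted p = 0.0282). With the offset for span it was 0.18 (edgeR adjusted p = 0.314), and leaving out control 1 raised the adjusted p to 0.1003 in edgeR. With the widest transcript *Srgap3* was at 0.25 and no longer past the threshold (edgeR adjusted p = 0.0606).

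By the unadjusted p the next 7 of the list followed, and none of them passed the threshold in the edgeR fit reported here. *Ext1*, an enzyme that builds the heparan sulfate on which Slit signaling depends, had a log2 fold change of 0.35 (SE 0.0840, edgeR adjusted p = 0.0599). *Adgrl3*, a latrophilin that binds Flrt and Unc5 proteins, had one of 0.25 (edgeR adjusted p = 0.0739), which turned to -0.05 with the offset for span. The kinase *Fyn*, which acts downstream of Dcc, was at 0.21 (edgeR adjusted p = 0.102), and *Dscam*, another netrin receptor, at 0.33 (edgeR adjusted p = 0.115). *Flrt2*, a ligand of Unc5 receptors, had 7616, 7719, 7832 and 7730 normalized counts in the controls and 8629, 8334, 8640 and 8670 in the treated libraries, a log2 fold change of 0.15 (edgeR adjusted p = 0.131). The groups of *Flrt2* were apart although the difference was small. *Trim9*, a ubiquitin ligase that binds Dcc, was at 0.37 (edgeR adjusted p = 0.145) and *Adgrl2* at 0.46 (edgeR adjusted p = 0.151), both with overlapping groups. With the widest transcript *Adgrl2* was at 0.14 (edgeR adjusted p = 0.343), while *Adgrl3* was at 0.28 and passed (edgeR adjusted p = 0.0481).

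**Figure D4:**
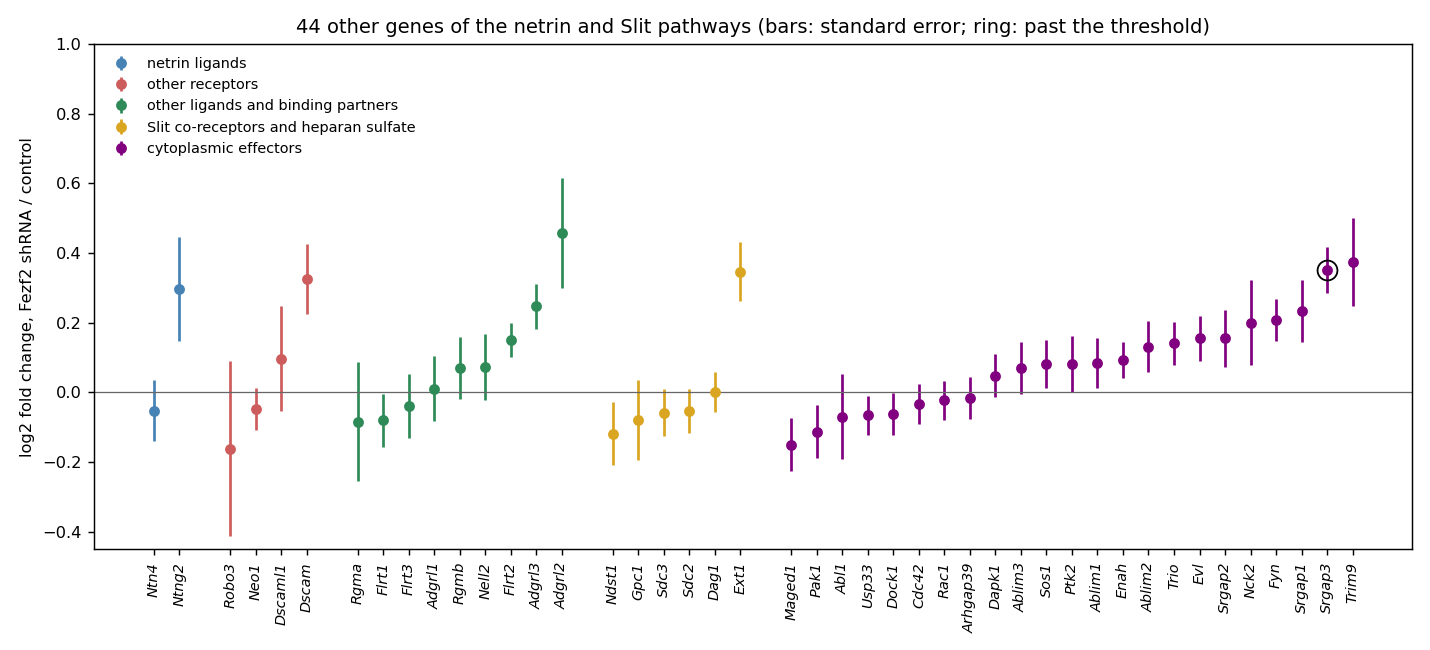
Log2 fold changes (vertical axis, *Fezf2 shRNA* over control, edgeR) with standard errors of the 44 further pathway genes tested, grouped and coloured by role and ordered by value within a role. *Srgap3* (0.35) carries the ring of a gene past the threshold, and 18 of the 44 lie below 0.

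Marker genes of the cell types of M1 were read in the same libraries. No marker that was tested was past the threshold in either direction, and the summed CPM (counts scaled to library size) of each list overlapped between the groups. Markers under the filter on low counts were not tested and could not pass. Of the meningeal fibroblast markers 0 of 5 were tested, of the endothelial 1 of 5, of the striatal 3 of 6 and of the microglial 5 of 6. The upper-layer neuron markers summed to 169 to 255 CPM in the controls and 244 to 291 after *Fezf2 shRNA* (median log2 fold change 0.27, 3 of 3 tested). Deep-layer neuron markers summed to 189 to 241 CPM and 158 to 217 CPM (median -0.15, 5 of 5 tested). Endothelial markers summed to 33.2 to 52.6 CPM and 29.1 to 35.9 CPM, with the 1 tested at -0.24. Medians were 0.04 for excitatory neurons, -0.10 for interneurons, -0.17 for astrocytes, -0.07 for oligodendrocyte precursors, 0.03 for microglia and -0.02 for striatal projection neurons. The oligodendrocyte markers summed to 991 to 1962 CPM and 747 to 1257 CPM (median log2 fold change -0.55, 5 of 5 tested). Meningeal fibroblast markers summed to at most 21.8 CPM in the controls and 26.2 CPM in the treated libraries. Markers of striatal projection neurons summed to 57.1 to 60.3 CPM and 43.5 to 63.1 CPM, with *Drd2* at a mean of 0.456 CPM. The part of these differences in the values of the guidance genes was not tested.

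**Figure D5:**
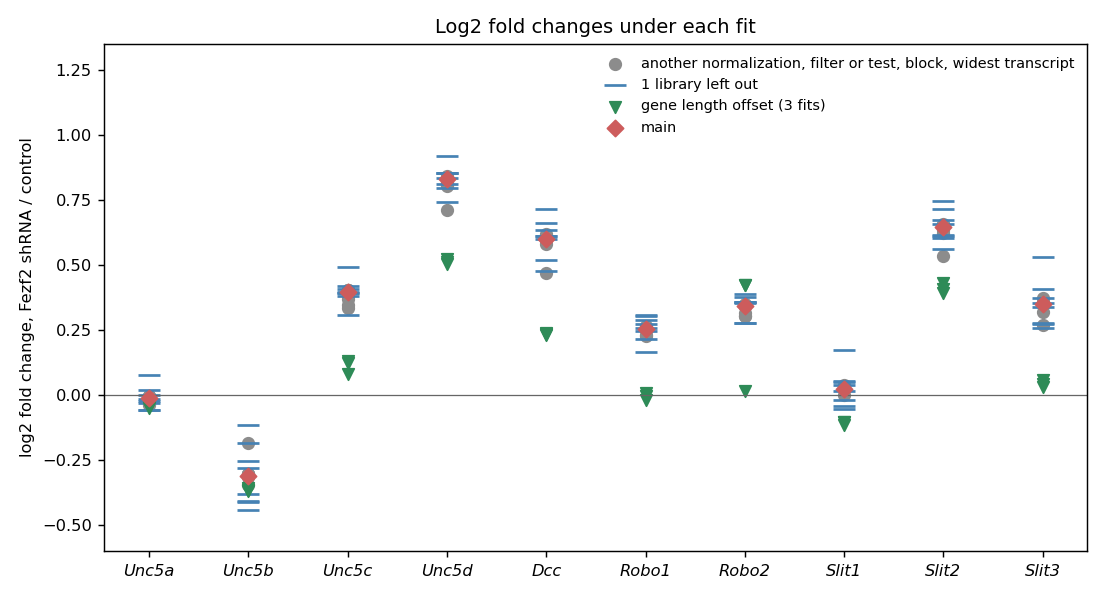
Log2 fold change (vertical axis, *Fezf2 shRNA* over control) of each of the 10 guidance genes in the fit reported here (red), with 1 library left out (blue), with other normalizations, filters, tests, a replicate block or the widest transcript (grey), and with an offset for gene length (green, 3 fits). *Unc5d*, *Slit2*, *Dcc*, *Unc5c*, *Robo2* and *Slit3* stayed above 0 in every fit, *Unc5b* stayed below 0, and *Unc5a*, *Robo1* and *Slit1* crossed 0 in at least 1.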

How the data were processed

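The authors mapped paired reads to mm10 with TopHat2 (2.1.1 in the submitters' processing notes) and counted them over Ensembl annotations in BED format with BEDTools multiCov (2.26.0). The deposited counts are raw read counts per transcript, and whether strand was used is not stated. Another deposited table holds the authors' DESeq2 comparison (mean levels, fold changes and p-values) and was not used.

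Of 94647 transcripts 91320 were matched to GENCODE M21, and those unmatched held 1.82% of counts. The transcript with the lowest Ensembl number stood for each gene. Samples were grouped by their titles. Genes above 8 CPM in 4 or more libraries were tested with edgeR 4.0.16 (TMM, quasi-likelihood test, no covariate, Benjamini-Hochberg over all genes tested) in R 4.3.3, after the steps had been tested on simulated data, and DESeq2 1.42.0 was an alternative. Standard errors are those of the fit. The offset for gene length was a per-library loess (span 0.3) on log span. Stretches of genes are the intervals of other annotated transcripts, or their differences, chosen by position after counts had been seen. Intronic parts had at most 5% and exonic parts at least 80% exonic bases, with a mean of at least 100 reads, and for the ratio over 144 genes each part was the interval of a single transcript, with the gene at least 5 times as long as the exonic one. Python 3.11.15 was used for the remaining steps.

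The 10 genes, the pathway list and the marker lists were chosen with earlier results of these data known. All 10 genes are named, with *Fezf2* and the 8 pathway genes of smallest p. The 54684016 to 58003814 counts per library leave the replicate spread, not counting error, as the limit for the guidance genes.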

Additional observations from a re-analysis of the deposited data

Results flagged for a closer look

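In 82 groups of 4 libraries, 8 had a library far from the other 3 (Dixon's test at the 95% level, for which chance gives about 1 in 20). *Unc5a* was at 2307 normalized counts in *Fezf2 shRNA* library 2, against 2525 to 2569 in the other treated libraries. *Slit1* was at 2290 in *Fezf2 shRNA* library 3, against 1879 to 1934. *Flrt2* was at 8334 in *Fezf2 shRNA* library 2, against 8629 to 8670, and *Adgrl2* at 1316 in control 2, against 804 to 885. In the first 7.18 kb of *Slit2*, control 3 was at 421.9, against 496 to 508, and *Fezf2 shRNA* library 3 at 671.8, against 577 to 592. Over the stretch of 188 kb of *Slit2*, control 4 was at 1439, against 1331 to 1337. In a stretch of 2.14 kb near the 3′ end of *Unc5c*, *Fezf2 shRNA* library 4 was at 133.8, against 91.8 to 94.5.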

How the results depend on the processing

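Counts of genes were recomputed under 20 alternatives, and fold changes under 19. Of the 10 guidance genes, 5 were past the threshold with DESeq2 with and without its prior, 0 with the gene length offset, with the widest transcript and that offset (an alternative chosen after seeing the data) or with the replicate block and that offset, and 0 to 4 with 1 library left out. The count of 2 stood under the other normalizations, filters, the widest transcript, no fold limit and the replicate block. Without control 3, control 4, *Fezf2 shRNA* library 3 or *Fezf2 shRNA* library 4 only *Unc5d* was past it. Pathway genes past the threshold numbered 7 with DESeq2 with and without its prior, 2 with the widest transcript, 0 with more than 1 CPM, no filter, the gene length offset, the replicate block, both together, or widest transcript and offset, and 0 to 4 with 1 library left out. Over all genes 218 were past it, 734 with DESeq2 with its prior and 752 without it, 111 with more than 1 CPM, 85 with no filter, 2 with the gene length offset, 89 with the replicate block, 2 with both, 1 with widest transcript and offset, and 0 (without control 1) to 401 (without control 2) with 1 library left out. *Fezf2* passed with DESeq2 (log2 fold change -0.25 with the prior, -0.28 without, adjusted p = 0.0256 in both) and ranged from -0.31 to -0.26 with 1 library left out. It was smaller in size and did not pass with the gene length offset (-0.182, edgeR adjusted p = 0.433). The same held with block and offset (-0.183, edgeR adjusted p = 0.433) and with widest transcript and offset (-0.182, edgeR adjusted p = 0.440). The cause of these differences was not tested.

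The log2 fold change turned in sign for *Robo1* with the length offset (-0.0036) and with block and offset (-0.0187). That of *Slit1* turned with library totals (-0.0018), the length offset (-0.118), block and offset (-0.104), widest transcript and offset (-0.104), and ranged from -0.0537 to 0.173 with 1 library left out. *Adgrl3* turned with the offset (-0.0454), block and offset (-0.0453), and widest transcript and offset (-0.0560), and *Unc5a* ranged from -0.0568 to 0.0756 with 1 library left out.

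The replicate numbers gave no clear pairing: deviations of same-numbered libraries correlated at 0.307, 0.0931, -0.133 and 0.167. Controls 1 and 4 matched their own number best, and controls 2 and 3 did not. With the replicate block *Unc5d* and *Slit2* remained past the threshold.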
